A study of Oryza sativa Indica Group with 12 samples.

Results

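RNAPII-associated and H3K9me2-associated chromatin loops of the rice variety MH63 (Minghui 63) were compared with each other, by position, nesting, length, partners and density along the chromosomes. All loops of both lists entered, 17160 RNAPII loops and 5627 H3K9me2 loops, which are 22787 of the 64726 loops in the 6 lists of the series. The series mapped interactions by ChIA-PET in young leaves of 2-week-old seedlings of 2 varieties with antibodies against 3 targets. Both sets used here came from MH63 seedlings raised in a phytotron, without any other treatment, and differed in the antibody: RNA polymerase II (RNAPII) in one, histone H3 dimethylated at lysine 9 (H3K9me2) in the other. Each had 2 biological replicates, which the authors joined before calling loops, so each target is 1 list with no spread between replicates, and no difference below carries a p-value. Leaf tissue holds many cell types, and a loop in a list need not exist in every one of them.

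ChIA-PET pulls down crosslinked chromatin with an antibody and ligates DNA ends that lie close together, so that a paired-end tag (PET) records a contact between a pair of genome positions. RNAPII is the enzyme that transcribes protein-coding genes, and its contacts join transcribed regions of the genome. H3K9me2 is a mark of heterochromatin, which in plants covers transposable elements and repeats and is densest around the centromeres, where genes are sparse. A loop here is a pair of intervals on 1 chromosome with its PET count, and its span is the distance between the midpoints of those intervals. Intervals of a list that overlapped were joined into 1 anchor, and a partner of an anchor is another anchor of the same list joined to it by at least 1 loop. The paper also reports loops between chromosomes for both targets. These are not in the lists used here, so partners on other chromosomes were not counted and all shares refer to loops within a chromosome.

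Both lists began at a PET count of 4 and had a median of 6. The RNAPII list summed 191725 PETs over its loops with a highest count of 817, against 55405 PETs and a highest count of 187 in the H3K9me2 list. These sums describe the called loops and are not the depth of the libraries, whose totals were not used here. PET counts are not scaled to depth, and its part in the size of a list was not tested. The loops stood on 7260 RNAPII anchors and 3245 H3K9me2 anchors. RNAPII anchors were narrow, with a median width of 2.74 kb and a maximum of 26.8 kb, against a median of 11.6 kb and a maximum of 205 kb for H3K9me2 anchors. In spite of their number RNAPII anchors covered less of the genome: 27.6 Mb, or 7.68% of the 359 Mb spanned by the lists, against 54.5 Mb or 15.2% for H3K9me2 anchors. As a check of the labels, anchors were set beside those of H3K4me3, a mark of active promoters. The nearest H3K4me3 anchor lay at a median of 0.980 kb from RNAPII anchors and of 57.8 kb from H3K9me2 anchors.

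RNAPII and H3K9me2 anchors rarely overlapped. An H3K9me2 anchor overlapped 183 of the 7260 RNAPII anchors by at least 1 bp, which is 2.52% (Wilson 95% interval 2.18 to 2.91%). In the other direction an RNAPII anchor overlapped 176 of the 3245 H3K9me2 anchors, or 5.42% (4.70 to 6.26%). These intervals, like all those given here, cover counting error only, and the anchors of a list are not independent of each other. In base pairs the lists shared 0.312 Mb, which was 1.13% of RNAPII anchor sequence and 0.573% of H3K9me2 anchor sequence. The genome-wide cover of H3K9me2 anchors, 15.2%, was far above that 1.13%, and the same held within each of the 12 chromosomes. The cover was also taken from the 1 Mb bins in which RNAPII anchors lay, weighted by their base pairs. H3K9me2 anchors covered 7.94% of those bins, 7.47% of such 0.5 Mb bins and 6.15% of such 0.1 Mb bins. The 1.13% observed was 0.142, 0.151 and 0.184 times these local values, a comparison that was chosen after seeing the data. The shared part thus lay below the H3K9me2 cover of the surroundings at all 3 bin sizes.

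Where anchors did overlap, it was mostly at their edges. Of the 191 overlapping pairs, 161 overlapped in part. In 24 the RNAPII anchor lay wholly inside the H3K9me2 anchor and in 6 the H3K9me2 anchor wholly inside the RNAPII anchor. The shared stretch of a pair had a median of 969 bp, and in 12 pairs it was over 5 kb. Anchors are peaks that the authors extended before calling loops, and the part of this extension in the overlaps was not tested. Only 56 RNAPII anchors (0.771%) and 13 H3K9me2 anchors (0.401%) were covered over at least 50% of their length. The RNAPII anchors that overlapped were wider than the other RNAPII anchors, with medians of 4.81 and 2.70 kb, while H3K9me2 anchors differed less, 13.3 against 11.4 kb. The share followed width, which was not adjusted for: from the narrowest to the widest of 4 equal classes of RNAPII anchors the share that overlapped was 1.27, 1.82, 2.81 and 4.19%. H3K9me2 anchors showed no such order, at 3.94, 4.56, 7.89 and 5.30% from the narrowest class to the widest. An H3K4me3 anchor lay on 37.2% of the RNAPII anchors that overlapped H3K9me2 and on 39.8% of those that did not. For H3K9me2 anchors the corresponding shares were 20.5% of those overlapping RNAPII, 36 of 176, and 4.46% of the rest. By chromosome the overlapping share ran between 0.967% on chromosome 7 and 5.63% on chromosome 11 for RNAPII anchors. For H3K9me2 anchors it ran between 2.02% on chromosome 7 and 11.2% on chromosome 1. RNAPII anchors also covered more of chromosome 1, 10.6% against 6.95% of chromosome 7. In base pairs, RNAPII anchors covered 1.33% of the H3K9me2 anchor sequence of chromosome 1 and 0.187% of that of chromosome 7.

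In 2 of the 3 largest overlaps in base pairs, an anchor with many partners in its own list met one with a single partner. All positions are 1-based in the MH63 genome from RIGW, whose gene annotation was not used here. The RNAPII anchor chr3:9641252-9662878 had 18 partners and also lay on an H3K4me3 anchor, while the H3K9me2 anchor it met, chr3:9645886-9664122, had 1 partner. They shared 17.0 kb. On chromosome 4, the RNAPII anchor chr4:11612124-11634808 and the H3K9me2 anchor chr4:11621187-11636655 shared 13.6 kb and had 1 partner each. The third case was the reverse of the first: an RNAPII anchor of 11.7 kb with 1 partner, chr9:2034899-2046576, lay wholly inside the H3K9me2 anchor chr9:2030550-2165204, which had 21 partners.

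Loops that met the other set at both ends were few. Neither end of 94.3% of the RNAPII loops lay on an H3K9me2 anchor, 889 loops (5.18%) had 1 end on an H3K9me2 anchor, and 94 (0.548%) had both ends on one. Among H3K9me2 loops, 89.5% had no end on an RNAPII anchor, 547 (9.72%) had 1 end and 45 (0.800%) had both. RNAPII loops with 1 end on H3K9me2 were long, with a median span of 122 kb and 30.7% over 1 Mb, against 57.2 kb and 18.0% for those with neither end on it. RNAPII loops with both ends on H3K9me2 were short, with a median span of 14.1 kb, and had a median PET count of 10 against 6. A loop whose intervals were joined into 1 anchor was counted with both ends where that anchor overlapped H3K9me2. Over the whole lists, 465 RNAPII loops and 0 H3K9me2 loops had overlapping intervals. How many of them are among the 94 was not counted, so the short span and high PET count may rest partly on them. In H3K9me2 loops the spans had the same order, with medians of 124 kb for 1 end, 49.6 kb for both ends and 103 kb for neither, and the median PET count was 6 in each class.

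A loop was counted as shared when its ends lay on both ends of a single loop of the other list. An overlap of 1 bp at each end was enough, so a shared loop need not be the same contact in both lists. This held for 21 RNAPII loops, 0.122% of the list (0.0801 to 0.187%), and for 19 H3K9me2 loops, 0.338% (0.216 to 0.527%). They stood on 10 of the 12 chromosomes, with 7 of the RNAPII loops on chromosome 1, 4 on chromosome 2 and none on chromosomes 6 and 7. Several share anchors, so these are fewer places than loops. The shared RNAPII loop with the highest PET count, 79, joined chr1:17701794-17712576 with chr1:17758174-17765699 over 54.8 kb. The H3K9me2 loop at its ends had a PET count of 10 and joined chr1:17712067-17721046 with chr1:17731189-17759230 over 28.7 kb. The same RNAPII anchor was joined to chr1:17720087-17721732 by 36 PETs, beside an H3K9me2 loop of 10 PETs between chr1:17690821-17702762 and chr1:17712067-17721046. On chromosome 2 an RNAPII loop of 44 PETs between chr2:15546383-15559049 and chr2:15562124-15567804 stood beside an H3K9me2 loop of 5 PETs between chr2:15551517-15557912 and chr2:15559673-15563944. These 3 were chosen for their RNAPII counts. Over all 21 shared RNAPII loops, the RNAPII count was the higher one in 11, the H3K9me2 count in 9, and in 1 they were equal. The anchors of both chromosome 1 cases met only in part, and on chromosome 2 an H3K9me2 anchor lay wholly inside an RNAPII anchor. In the chromosome 1 case of 36 PETs, the RNAPII anchor chr1:17701794-17712576 covered the whole gap between the H3K9me2 anchors.

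RNAPII anchors lay close to each other and far from H3K9me2 anchors. The distance between edges from an RNAPII anchor to the nearest H3K9me2 anchor had a median of 133 kb with quartiles of 38.0 and 330.3 kb, against a median of 5.56 kb to the nearest other RNAPII anchor. Within 10 kb of an H3K9me2 anchor lay 10.9% of RNAPII anchors, 57.0% lay over 100 kb away and 99 anchors over 1 Mb. From H3K9me2 anchors the nearest RNAPII anchor lay at a median of 64.6 kb with quartiles of 14.5 and 204 kb, against 7.69 kb to the nearest other H3K9me2 anchor. Of the H3K9me2 anchors, 21.1% lay within 10 kb of an RNAPII anchor, 40.5% over 100 kb away and 86 over 1 Mb, up to 2354 kb. The distance from RNAPII anchors was the larger one on 9 of 12 chromosomes. With as many RNAPII as H3K9me2 loops, taken from the highest PET count down, the order of the medians over all chromosomes turned, with 137 kb from RNAPII anchors and 186 kb from H3K9me2 anchors. Chromosome medians from RNAPII anchors ran between 68.1 kb on chromosome 12 and 229.6 kb on chromosome 3, and those from H3K9me2 anchors between 23.0 kb on chromosome 2 and 249 kb on chromosome 4. These distances depend on how many loops are kept: when both lists were limited to loops of 10 PETs or more, the medians were 1422 kb from RNAPII anchors and 365 kb from H3K9me2 anchors.

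**Figure D1:**
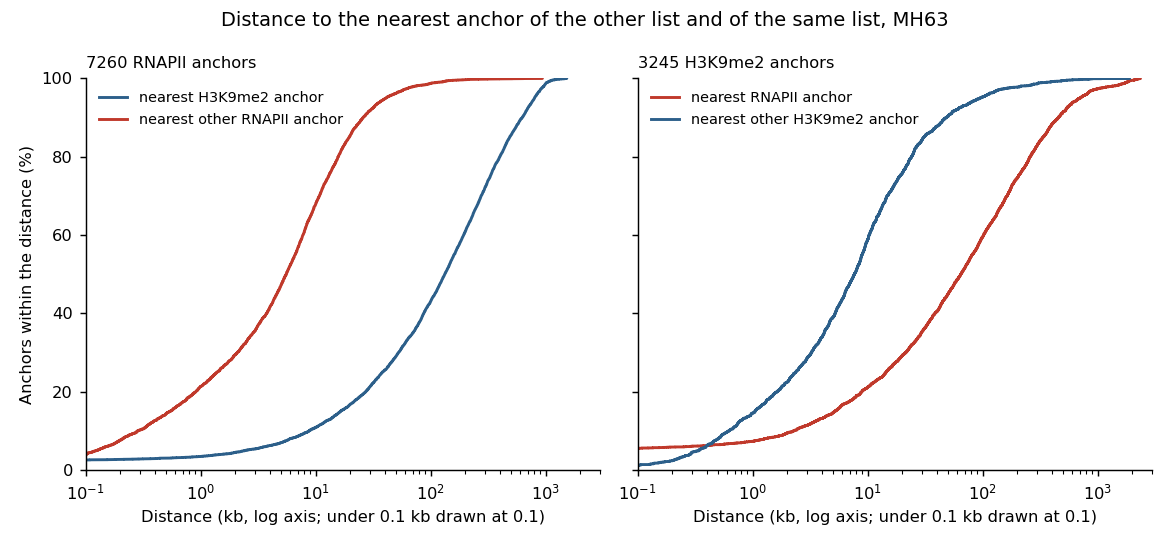
Share of anchors (y axis, %) within a given distance (x axis, kb, log axis) of the nearest anchor of each list, for RNAPII anchors on the left and H3K9me2 anchors on the right. In both panels the curve for the same list rises far to the left of the curve for the other list, with medians of 5.56 and 133 kb for RNAPII anchors and of 7.69 and 64.6 kb for H3K9me2 anchors.

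Read along the chromosome, anchors of a kind came in runs. Of the 10505 anchors of both lists, 69.1% were RNAPII anchors and 30.9% H3K9me2 anchors, whereas the next anchor was again RNAPII after 87.6% of RNAPII anchors and again H3K9me2 after 72.1% of H3K9me2 anchors. There were 910 runs of RNAPII anchors with a mean of 7.98 anchors and 908 runs of H3K9me2 anchors with a mean of 3.57. Runs of 10 or more held 72.5% of RNAPII anchors and 41.2% of H3K9me2 anchors. The longest RNAPII run had 127 anchors over 2416 kb at chr3:9713244-12129379, and the longest H3K9me2 run had 124 anchors over 4710.2 kb at chr4:5314501-10024668. H3K9me2 anchors were followed by their own kind least often on chromosome 1 (55.3%) and most often on chromosome 4 (83.2%). They made up 20.5 and 34.2% of the anchors there. RNAPII anchors were followed by their own kind least often on chromosome 12 (73.4%) and most often on chromosome 3 (92.2%), where they made up 43.0 and 81.7%. Since the share of a kind differs between chromosomes, this order is not an order of clustering.

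Nesting was counted over loops of up to 1 Mb between their outer ends, 13969 RNAPII and 4798 H3K9me2 loops. Most RNAPII loops, 78.6%, shared no sequence with any H3K9me2 loop, while 55.6% of H3K9me2 loops stood apart from RNAPII loops. Inside a loop of the other list lay 1070 RNAPII loops, or 7.66% (7.23 to 8.11%), and 1248 H3K9me2 loops, or 26.0% (24.8 to 27.3%). Conversely 1490 RNAPII loops (10.7%) held at least 1 H3K9me2 loop and 825 H3K9me2 loops (17.2%) held at least 1 RNAPII loop. Loops that crossed loops of the other set without nesting either way were 4.04% of RNAPII and 5.25% of H3K9me2 loops, and a loop counted as nested may also cross others. With as many RNAPII as H3K9me2 loops, chosen in that way, 8.38% of RNAPII loops lay inside H3K9me2 loops and 10.2% of H3K9me2 loops inside RNAPII loops. Without a limit on length, 87.6% of RNAPII and 97.3% of H3K9me2 loops lay inside some loop of the other list, so the values hold for loops of up to 1 Mb.

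Loops that were inside were shorter than those that held others, an order that the definition of nesting favours. Between outer ends, a loop inside another cannot be longer than the loop that holds it. RNAPII loops that only lay inside an H3K9me2 loop had a median span of 17.9 kb, those that only held one 351 kb, and those apart 33.2 kb. The H3K9me2 loops had medians of 38.5 kb inside, 293 kb holding and 72.0 kb apart. In the shortest class, up to 20 kb, 12.3% of RNAPII loops lay inside an H3K9me2 loop, against 43.1% of H3K9me2 loops inside an RNAPII loop. In the longest class, 300 kb to 1 Mb, the shares that held a loop of the other list were close, 49.6% of RNAPII and 47.5% of H3K9me2 loops. The lists offer unequal numbers of loops to lie inside, 4798 for RNAPII loops and 13969 for H3K9me2 loops, and these shares by span were not computed with equal numbers.

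**Figure D2:**
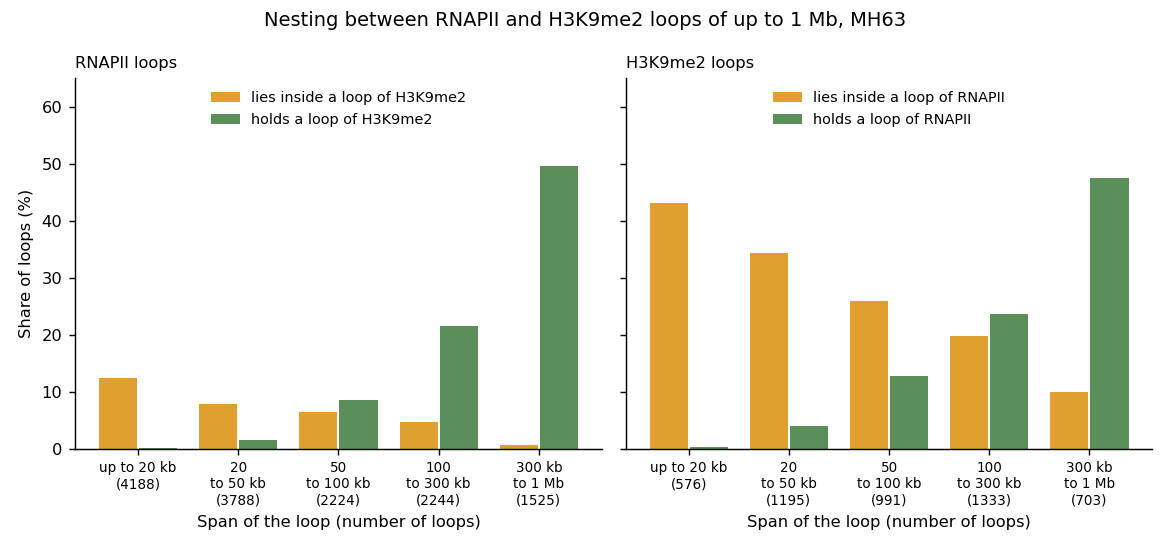
Share of loops (y axis, %) that lie inside a loop of the other list (orange) or hold one (green), by span class on the x axis with the number of loops in parentheses, for RNAPII loops on the left and H3K9me2 loops on the right. From the shortest to the longest class the share inside declines, 12.3 to 0.590% for RNAPII and 43.1 to 9.96% for H3K9me2, while the share that holds others climbs to 49.6% for RNAPII and 47.5% for H3K9me2. This course is partly built into the definition, since a longer loop fits inside fewer loops and can hold more.

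Nesting was uneven over the chromosomes. RNAPII loops lay inside H3K9me2 loops in 4.72% of cases on chromosome 3, and in 30.4% on chromosome 12 and 23.9% on chromosome 11, where RNAPII loops were fewest. H3K9me2 loops lay inside RNAPII loops in 69.0% of cases on chromosome 2, 59.3% on chromosome 1 and 51.9% on chromosome 9, but in only 5.82% on chromosome 10, and on chromosome 4 85.7% of them stood apart from RNAPII loops. Chromosome 2 weighed most on the total, which was 21.3% without it. That chromosome also had the RNAPII loop with the most H3K9me2 loops inside, 93 of them, with a median span of 112 kb and PET counts of up to 174. This RNAPII loop had a PET count of only 5 and joined chr2:14693892-14719180 with chr2:15593184-15594884 over 887 kb, and it alone encloses that many H3K9me2 loops. The H3K9me2 loop with the most RNAPII loops inside, 35, is the first of 3 with that number. It joined chr3:17380169-17394272 with chr3:17818107-17833203 over 438 kb with a PET count of 4, and its RNAPII loops had a median span of 45.8 kb and PET counts of up to 64.

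The sequence between the anchors of a loop was examined for anchors of the other list. In RNAPII loops of up to 20 kb, H3K9me2 anchors covered 1.33% of the gap on average, in loops of 20 to 100 kb 4.59%, in loops of 100 kb to 1 Mb 6.54% and in loops over 1 Mb 9.94%. Even the longest RNAPII loops thus had, as a mean over loops, less H3K9me2 anchor sequence in the gap than the genome average of 15.2%. That average is a loose reference, since loops share sequence and are unevenly spread. Of the 3187 RNAPII loops over 1 Mb, 838 lay on chromosome 1 and 804 on chromosome 3. H3K9me2 anchors covered 10.5% of chromosome 1 and 13.2% of chromosome 3. Whole H3K9me2 anchors stood in the gap of 1.07% of the shortest and 98.0% of the longest of these span classes, and longer gaps have more room for them. In H3K9me2 loops the cover by RNAPII anchors was 3.29, 3.93, 2.41 and 3.96% from the shortest class to the longest, below the genome average of 7.68% in each, and whole RNAPII anchors stood in 3.65% of the shortest and 97.3% of the longest. The cover by anchors of the loop's own list was 16.1, 15.6, 13.8 and 11.7% in RNAPII loops from the shortest class to the longest, and 2.30, 19.6, 47.4 and 31.9% in H3K9me2 loops. RNAPII loops thus had the higher cover by their own anchors in the shortest class and H3K9me2 loops in the others. The shortest class leaves little room in the gap for another H3K9me2 anchor, whose median width was 11.6 kb.

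RNAPII loops were typically shorter than H3K9me2 loops, but a larger share of them spanned over 10 Mb. The median span was 59.3 kb for RNAPII and 105 kb for H3K9me2, a ratio of 0.567, and the quartiles were 20.5 and 391 kb for RNAPII and 39.0 and 341 kb for H3K9me2. Loops of up to 20 kb made up 24.4% of RNAPII and 10.2% of H3K9me2 loops, and loops of 100 kb to 1 Mb 22.0% of RNAPII and 36.6% of H3K9me2 loops. At the far end the order turned, with 1025 RNAPII loops (5.97%) and 161 H3K9me2 loops (2.86%) over 10 Mb. Those loops had low support, with median PET counts of 5 for RNAPII and 4 for H3K9me2, where both lists begin at 4. The longest loops spanned 39.8 Mb for RNAPII and 30.6 Mb for H3K9me2, in lists of unequal size. The RNAPII median was the longer one only on chromosome 1, at 91.0 kb against 85.1 kb for H3K9me2. The share of loops over 1 Mb was higher for RNAPII on 7 of 12 chromosomes.

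Strongly supported RNAPII loops were the short ones. From a PET count of 4 through 5, 6 to 9, 10 to 19 and 20 to 49 to 50 or more, the median span of RNAPII loops was 130.6, 89.2, 64.7, 34.9, 22.8 and 16.5 kb. H3K9me2 loops of the same classes had median spans of 142, 110, 104, 87.7, 82.7 and 79.6 kb, a much flatter course. The medians were thus close at a PET count of 4 and differed several-fold at 50 or more. Spearman's correlation of PET count with span, given as a description over the loops of a list, was -0.30 for RNAPII and -0.13 for H3K9me2. The ratio of medians moved with the PET limit, to 0.424 at a PET count of at least 6, 0.324 at 10 and 0.281 with as many RNAPII as H3K9me2 loops.

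**Figure D3:**
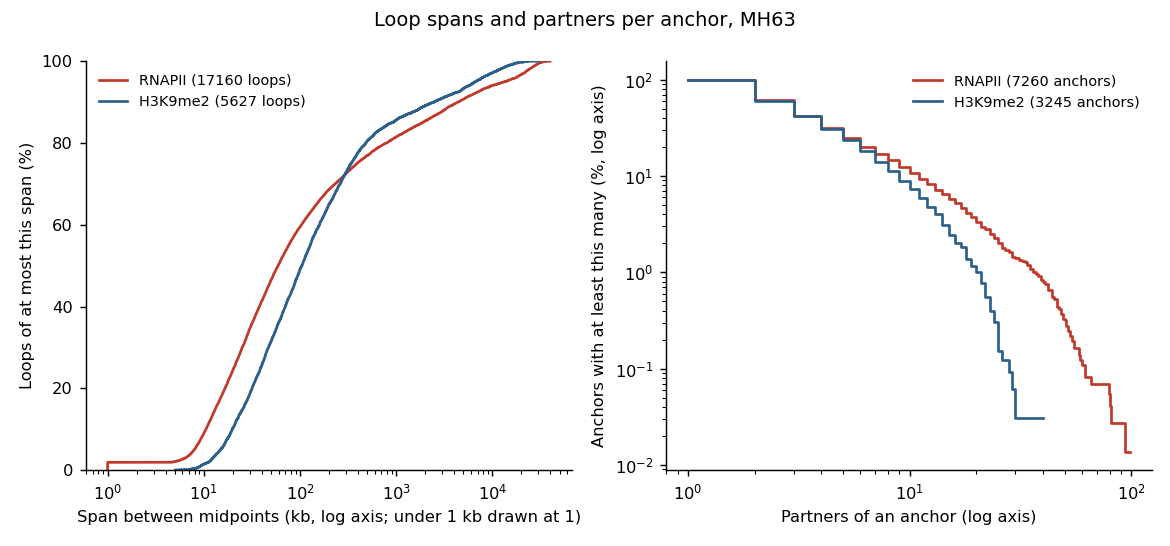
Left, share of loops (y axis, %) of at most a given span (x axis, kb, log axis) for RNAPII and H3K9me2; right, share of anchors (y axis, %, log axis) with at least a given number of partners (x axis, log axis). The span curves cross between the medians of 59.3 kb for RNAPII and 105 kb for H3K9me2 and the long loops, and the partner curves part only among anchors of many partners, which reach 99 for RNAPII and 40 for H3K9me2.

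Partners were alike in the bulk of anchors and differed among those with many. Both lists had a median of 2 partners, and 38.6% of RNAPII and 40.4% of H3K9me2 anchors had 1. Of the RNAPII anchors 3 had none, their only loops joining intervals that overlap. The mean was 4.33 for RNAPII and 3.47 for H3K9me2, a difference of 0.857. Anchors with 10 or more partners numbered 786 for RNAPII, or 10.8% (10.1 to 11.6%), and 240 for H3K9me2, or 7.40% (6.55 to 8.35%). Anchors with 20 or more were 3.35% of RNAPII and 1.02% of H3K9me2 anchors. The tenth of anchors with the most partners held 45.8% of all RNAPII and 36.6% of all H3K9me2 partners. Per 10 kb of anchor the difference was wider, 11.4 RNAPII and 2.07 H3K9me2 partners. The RNAPII mean was higher on 7 of 12 chromosomes, by the most on chromosome 1, with 4.96 against 2.94, and lower by the most on chromosome 12, with 2.00 against 3.24. The sign of the difference changed with the PET limit: it was 0.145 at a PET count of at least 6, -0.288 at 10, and -0.922 with as many RNAPII as H3K9me2 loops.

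The anchors with the most partners differed in how near the other set lay. The RNAPII anchor with the most, 99, was chr5:23922903-23940381, a 17.5 kb anchor whose nearest H3K9me2 anchor lay 49.9 kb away, nearer than the median of 133 kb over all RNAPII anchors, and had 1 partner. Of its partners, 65 lay over 1 Mb away and 5 overlapped an H3K9me2 anchor. The H3K9me2 anchor with the most, 40, was chr6:14092887-14248036, an anchor of 155 kb whose nearest RNAPII anchor lay 560.2 kb away and had 2 partners. Its partners lay at a median of 286 kb, 8 of them over 1 Mb away, and none overlapped an RNAPII anchor. H3K9me2 anchors with 10 or more partners lay at a median of 146 kb from RNAPII. Those with 3 to 9 lay at 89.2 kb and those with 1 or 2 at 48.2 kb. The median widths of these H3K9me2 classes were 37.3, 15.5 and 7.90 kb, and width was not adjusted for. RNAPII anchors had a weaker gradient, with medians to H3K9me2 of 159.6, 146.1 and 122 kb for the same classes. RNAPII anchors with 10 or more partners overlapped H3K9me2 in 3.18% of cases, those with 3 to 9 in 2.75% and those with 1 or 2 in 2.22%. Their median widths were 8.26, 4.79 and 1.57 kb in that order, and width was not adjusted for. In base pairs the order was not kept, with 1.14, 0.788 and 1.49% of their sequence on H3K9me2 anchors. The RNAPII loop with the highest PET count, 817, between chr3:9063200-9072754 and chr3:9089461-9099140, had its ends 59.7 and 85.9 kb from H3K9me2 anchors, also nearer than the median of 133 kb. The H3K9me2 loop of 187 PETs, between chr12:10609505-10693954 and chr12:10716546-10822997, had its ends 274 and 382 kb from RNAPII anchors, farther than the median of 64.6 kb over all H3K9me2 anchors.

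Seen from the distance to the other set, partners of H3K9me2 anchors varied over a wider range than those of RNAPII anchors. H3K9me2 anchors within 10 kb of an RNAPII anchor, without overlap, had a mean of 2.70 partners. Those 10 to 50 kb away had 2.91, those 50 to 200 kb away 3.43 and those farther away 4.47. The median widths of these H3K9me2 classes were 9.63, 11.3, 11.3 and 12.7 kb, and width was not adjusted for. RNAPII anchors in the same classes of distance from H3K9me2 had 3.80, 3.90, 4.37 and 4.55 partners. Overlapping anchors departed from this order, with 5.14 partners for RNAPII and 3.62 for H3K9me2, and they were also wider. The median span of loops ending on RNAPII anchors was 89.0 kb where these overlapped H3K9me2 and 56.3 kb where they lay over 200 kb from it. Loops ending on H3K9me2 anchors had a median span of 105 kb where these overlapped RNAPII and 122 kb where they lay over 200 kb from it.

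Along the chromosomes the densities of the 2 sets ran opposite to each other. In 355 complete bins of 1 Mb the number of RNAPII anchors had a median of 16 and ran between 0 and 69, and that of H3K9me2 anchors had a median of 7 and ran between 0 and 37. Spearman's correlation of the counts was -0.64 and Pearson's -0.57, as a description of neighbouring bins of 12 chromosomes that are not independent, all taken from the same joined libraries. It was below 0 on all 12 chromosomes, between -0.82 on chromosome 4 and -0.23 on chromosome 11. Bins of a single set were few: 304 bins held anchors of both sets, 32 only RNAPII, 19 only H3K9me2 and none neither. RNAPII anchors were the more numerous in 225 bins and H3K9me2 anchors in 124.

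**Figure D4:**
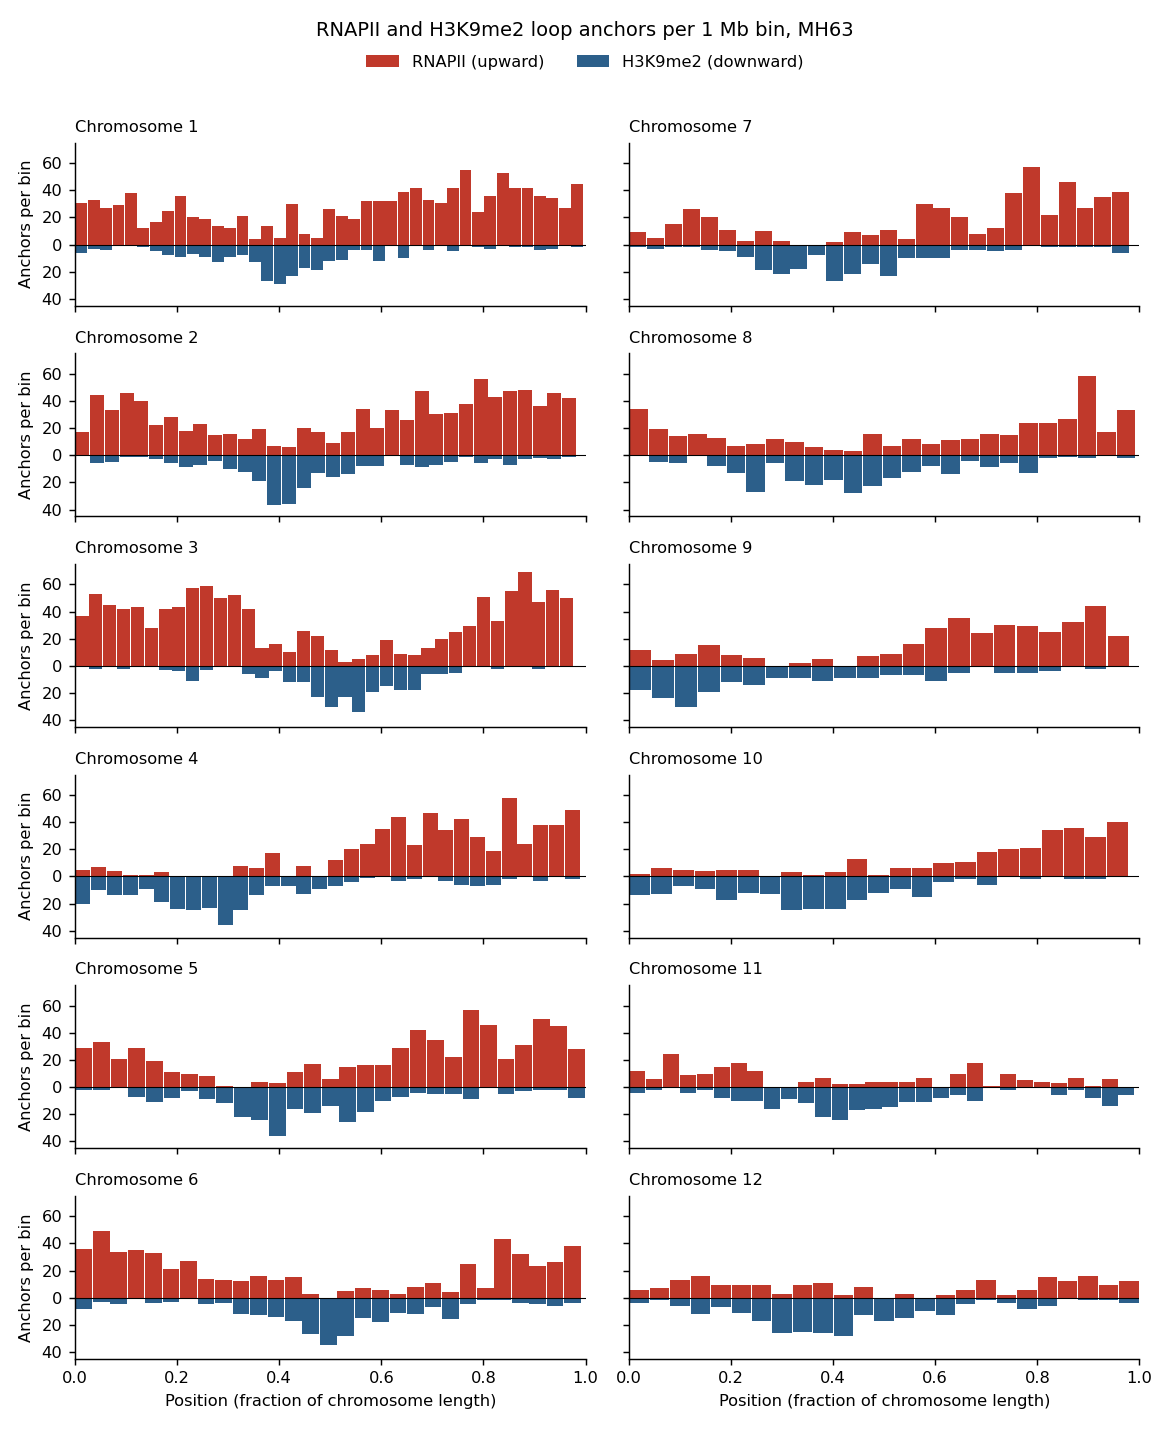
Number of anchors per 1 Mb bin (y axis), RNAPII upward and H3K9me2 downward, against position as a fraction of chromosome length (x axis), in 1 panel for each of the 12 chromosomes. H3K9me2 anchors rise to a peak of 24 to 37 per bin on each chromosome where RNAPII anchors number 0 to 9, and RNAPII anchors stand highest toward 1 or both ends on most chromosomes.

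Bins without H3K9me2 anchors had a median of 33.5 RNAPII anchors, and those with 1 to 4, 5 to 9, 10 to 19 and 20 or more had medians of 31.5, 17.5, 8 and 5. RNAPII-poor bins occurred in every class, with lowest counts between 0 and 5, whereas no bin with 20 or more H3K9me2 anchors exceeded 30 RNAPII anchors. The 36 bins richest in RNAPII held 25.7% of its anchors and 2.56 H3K9me2 anchors a bin, against 9.81 in the other bins. The 36 bins richest in H3K9me2 held 30.4% of its anchors and 6.92 RNAPII anchors a bin, against 21.5 elsewhere. Both lists were thus concentrated, and in different bins.

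**Figure D5:**
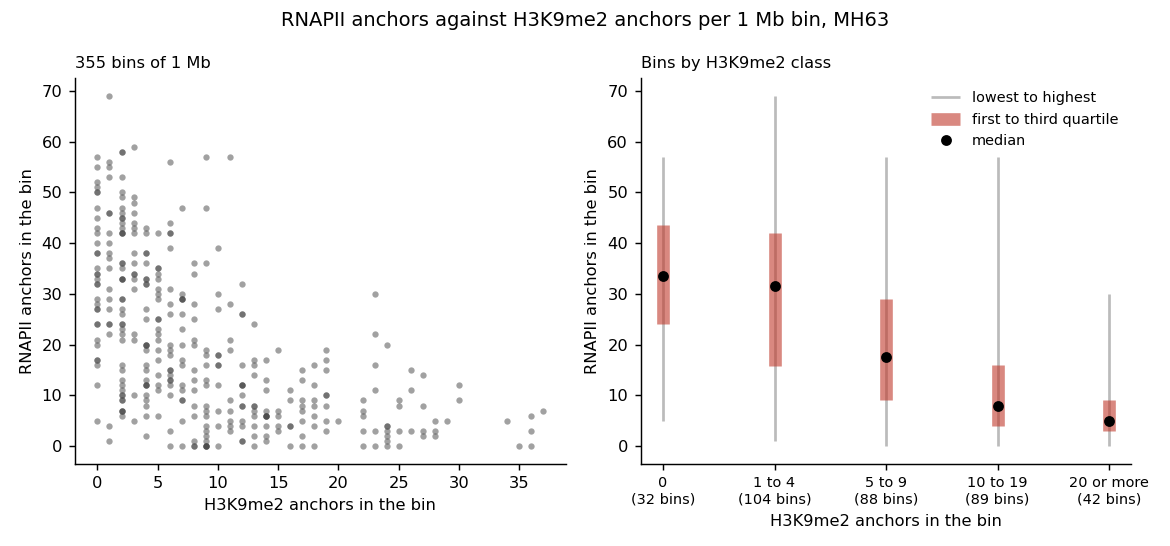
RNAPII anchors (y axis) against H3K9me2 anchors (x axis) in each of 355 bins of 1 Mb on the left, 1 point a bin, and the spread of RNAPII anchors by class of H3K9me2 anchors on the right, with median, quartiles and range. The points fill the lower left corner and leave the upper right empty, and the medians descend through 33.5, 31.5, 17.5, 8 and 5 RNAPII anchors.

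The extreme bins show the contrast. The bin with the most RNAPII anchors, chr3:32000001-33000000, held 69 RNAPII anchors and 1 H3K9me2 anchor, and it was followed by chr3:9000001-10000000 with 59 and 3 and by chr4:27000001-28000000 and chr8:23000001-24000000 with 58 and 2 each. The bins with the most H3K9me2 anchors were chr2:13000001-14000000, with 7 RNAPII and 37 H3K9me2 anchors, chr2:14000001-15000000 with 6 and 36, chr4:9000001-10000000 with 0 and 36 and, tied with both, chr5:11000001-12000000 with 3 and 36. The chromosome 4 bin closes the longest stretch of whole bins without RNAPII anchors, chr4:6000001-10000000, where 108 H3K9me2 anchors stood in 4 bins. Without H3K9me2 anchors no stretch was longer than 2 bins, and 3 had that length: chr1:3000001-5000000 with 67 RNAPII anchors, chr3:4000001-6000000 with 71 and chr3:10000001-12000000 with 102. Some bins ranked high for both, first among them chr1:17000001-18000000 with 30 RNAPII and 23 H3K9me2 anchors, the bin of the shared loop with the most PETs. The next were chr1:24000001-25000000 with 32 and 12 and chr3:8000001-9000000 with 57 and 11.

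RNAPII loops also reached across the bins richest in H3K9me2 anchors on some chromosomes. On each chromosome the bin with the most H3K9me2 anchors was taken, and a loop was counted when its anchors lay on opposite sides of it. This held for 938 RNAPII loops and 270 H3K9me2 loops, which were 29.4% of RNAPII and 33.4% of H3K9me2 loops over 1 Mb. Chromosome 3 had 306 such RNAPII loops against 31 H3K9me2 loops, chromosome 1 259 against 27, and chromosome 5 113 against 23, with a PET count of up to 75 for RNAPII. Of the loops over 1 Mb on chromosome 3, these were 38.1% for RNAPII and 29.8% for H3K9me2. The order of the shares turned on chromosome 1, at 30.9% against 36.5%, and on chromosome 5, at 29.5% against 36.5%. On chromosome 4 there were only 4 RNAPII against 29 H3K9me2 loops, and on chromosome 10 only 2 against 24. These were 1.90% against 38.2% of such long loops on chromosome 4 and 3.57% against 37.5% on chromosome 10. On those chromosomes RNAPII anchors stood almost all on one side: 21 before and 587 after the bin on chromosome 4 and 27 before and 275 after it on chromosome 10, whereas chromosome 3 had 695 and 529. Wholly within these 12 bins lay 23 RNAPII and 961 H3K9me2 loops, a contrast that the choice of bins by H3K9me2 anchors favours. The ends of long RNAPII loops stood in the same kind of bin as those of short ones, since 63.1% of the ends of RNAPII loops over 1 Mb and 63.3% of those of shorter loops were in bins with at most 4 H3K9me2 anchors. H3K9me2 loop ends stood in bins with 10 or more H3K9me2 anchors in 78.0% of cases for loops over 1 Mb and 88.8% for shorter ones. These bins are classed by the anchors of the same loops, so high shares are built in and are not comparable with the RNAPII values.

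The density of loops per chromosome varied widely for RNAPII and little for H3K9me2. RNAPII loops numbered between 9.19 per Mb on chromosome 12 and 101.1 per Mb on chromosome 3, and H3K9me2 loops between 10.5 per Mb on chromosome 1 and 18.2 per Mb on chromosome 8. RNAPII loops were the more numerous on 10 of 12 chromosomes. On chromosome 11 there were 315 RNAPII and 444 H3K9me2 loops, and on chromosome 12 there were 230 and 429.

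The other variety, ZS97, gave values for most of the same measures that can be set beside those of MH63, though its RNAPII loops start at 6 PETs. The share of RNAPII anchors that overlapped H3K9me2 was 2.52% in MH63 and 1.91% in ZS97, and that of H3K9me2 anchors that overlapped RNAPII was 5.42% in MH63 and 3.56% in ZS97. The bin correlation was -0.64 over 355 bins in MH63 and -0.63 over 341 bins in ZS97. RNAPII loops inside H3K9me2 loops were 7.66% in MH63 and 9.50% in ZS97. H3K9me2 loops inside RNAPII loops were 26.0% in MH63 and 14.4% in ZS97, so at these unequal PET limits the varieties differed in opposite directions. With both MH63 lists limited to 6 PETs or more, the nested shares were 4.03% of RNAPII and 15.1% of H3K9me2 loops. Nesting in ZS97 was not computed with both of its lists so limited, and the varieties were not compared for it at an equal limit. Limited to loops of 6 PETs or more in all 4 lists, the overlap of RNAPII anchors was 1.83% in MH63 and 1.49% in ZS97, and the ratio of median spans, RNAPII over H3K9me2, was 0.424 in MH63 and 0.318 in ZS97. With 1 joined list for each variety and target, none of these differences was tested.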

How the data were processed

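Leaves of 2-week-old MH63 seedlings gave 4 ChIA-PET libraries, 2 biological replicates for RNAPII and 2 for H3K9me2, and the joined list of each target was used, with the H3K4me3 and ZS97 lists beside them. The authors filtered linkers, mapped tags to the MH63 genome from RIGW, removed redundant PETs and called loops on extended ChIP-seq peaks with ChIA-PET Tool, whose version is not given in the sources used here. They kept loops under an FDR of 0.05 and above a PET limit set by depth. The PET counts they deposited are raw counts per loop, summed over joined replicates and not scaled. The p-value and FDR columns deposited with each loop were not used further. Replicates were assigned by title. Library totals were not used here, and the PETs summed over called loops describe the lists, not library depth.

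From chromosome, start, end and PET count were computed anchors (intervals joined at 1 bp or more), overlaps, distances between edges, nesting of loops of up to 1 Mb, spans, partners and anchors per complete 1 Mb bin, with each chromosome taken to end at the highest coordinate of the 3 MH63 lists. Starts, counted from 0 in the lists, are printed 1-based. Shares carry Wilson 95% intervals, and no test was possible on joined lists. Columns of no sample numbered 0. Loci were named by rule: the 3 largest overlaps, the 3 shared RNAPII loops with the highest PET counts, the loop of each list holding most loops of the other, the anchor with most partners and the loop with the highest PET count of each list, the 3 bins richest in each set and in both, and the longest stretches of bins without a set, with ties among bins added after their values were seen. Members, measures and rules were chosen with earlier results of these data known. The functions were tested on simulated data. Alternatives were PET counts of at least 6 and 10, as many RNAPII as H3K9me2 loops, RNAPII loops with overlapping anchors left out (465 such loops, H3K9me2 had 0), each chromosome left out, and other definitions of overlap, distance, nesting, span, partner and bin. Programs were written in Python 3.11.15 (pandas 2.3.3, numpy 2.4.6, scipy 1.17.1) and figures drawn in matplotlib 3.10.9.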

Additional observations from a re-analysis of the deposited data

Results flagged for a closer look

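The mean number of partners per anchor, RNAPII minus H3K9me2, had opposite signs in the varieties. It was 0.857 in MH63, from means of 4.33 for RNAPII and 3.47 for H3K9me2, and -0.825 in ZS97, from means of 3.39 for RNAPII and 4.22 for H3K9me2. The difference between the varieties was not tested, since each mean comes from 1 joined list. The lowest PET count is 6 among ZS97 RNAPII loops and 4 in the other lists. Limited to loops of 6 PETs or more in every list, a setting chosen after seeing the data for the comparison of varieties, the values were 0.145 in MH63 and -0.602 in ZS97, and limited to 10 or more they were -0.288 in MH63 and -1.06 in ZS97.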

How the results depend on the processing

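Of 61 alternative values of 9 results, 21 stayed within the interval or a tolerance of 10% of the reported value, 38 moved beyond it and 2 changed sign. The interval was the Wilson interval for shares and one from order statistics for medians, and the 10% held for the partner difference and the bin correlation. Values are given in the order overlapping RNAPII anchors, overlapping H3K9me2 anchors, median distance from RNAPII and from H3K9me2 anchors, nested RNAPII and nested H3K9me2 loops, ratio of spans, partner difference and bin correlation. At a PET count of at least 6 they were 1.83%, 4.52%, 332 kb, 133 kb, 4.03%, 15.1%, 0.424 and 0.145, with the correlation within tolerance. At 10 they were 1.03%, 2.85%, 1422 kb, 365 kb, 1.51%, 8.36%, 0.324, -0.288 and -0.56. With as many RNAPII as H3K9me2 loops, overlapping H3K9me2 anchors were 3.33%, the distance from H3K9me2 anchors 186 kb, nested RNAPII loops 8.38%, nested H3K9me2 loops 10.2%, the ratio 0.281 and the partner difference -0.922. With 50% of an anchor covered the overlaps were 0.771% of RNAPII and 0.401% of H3K9me2 anchors, and within 1 kb 3.48% and 7.33%. Between midpoints the distances were 140.2 kb from RNAPII and 73.8 kb from H3K9me2 anchors. Nested shares were 87.6% of RNAPII and 97.3% of H3K9me2 loops at any length, and 3.93% and 9.48% up to 200 kb. The ratio of spans was 0.731 between inner ends, 0.482 between outer ends and 0.492 for loops of up to 1 Mb, and the partner difference over such loops was 0.327. The bin correlation was -0.54 in 0.5 Mb bins, -0.71 in 2 Mb bins and -0.57 for loop midpoints. The cause of the changes of sign was not tested.

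With each chromosome left out in turn, the ranges were 2.40 to 2.70% and 4.85 to 5.70% for overlapping RNAPII and H3K9me2 anchors, 119 to 143 kb and 57.0 to 74.4 kb for the distances from RNAPII and H3K9me2 anchors, 7.27 to 8.44% and 21.3 to 28.3% for nested RNAPII and H3K9me2 loops, 0.516 to 0.591 for the ratio, 0.684 to 0.949 for the partner difference and -0.68 to -0.61 for the bin correlation.

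No paired analysis was possible because the replicates of each target were joined into 1 list, and leaving out a replicate was not possible either. Loops under the PET limit are not seen, and the part of library depth in the size of a list was not tested. Intervals cover counting error only.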
